A study of Mus musculus with 2 samples.

Results

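The immediate early and activation response genes described here were 33 named genes out of 17238 genes in the count table. They were listed by name and not by a cutoff on a measured value, but with earlier results of these data known. They were 7 AP-1, ATF and MAF factors (Fos, Fosb, Jun, Junb, Jund, Atf3 and Maff) and 10 other transcription factors (Egr1, Egr2, Egr3, Nr4a1, Nr4a2, Nr4a3, Klf4, Klf6, Csrnp1 and Myc). The others were 3 IER genes (Ier2, Ier3 and Ier5), 4 MAP kinase phosphatases (Dusp1, Dusp2, Dusp5 and Dusp6), 4 genes of RNA decay and of the BTG family (Zfp36, Zfp36l1, Btg1 and Btg2) and 5 stress and feedback genes (Gadd45b, Gadd45g, Ppp1r15a, Socs3 and Rhob). All 33 were detected in both tissues.

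Immediate early genes are transcribed within minutes of a stimulus, without new protein synthesis, by factors already in the cell such as SRF with its ETS partners, CREB and NF-kB. Their products include the Fos and Jun proteins, which pair to form the AP-1 factor, and the zinc finger proteins of the EGR family. Feedback follows quickly: DUSP phosphatases switch off MAP kinases, Zfp36 and Zfp36l1 bind AU-rich messenger RNAs and speed their decay, and Socs3 limits cytokine receptor signals. In lymphocytes the set responds to antigen and cytokines, and it is also known to respond to enzymatic digestion of tissue. Innate lymphoid cells (ILCs) carry no antigen receptor; group 3 (ILC3) responds to IL-23 and makes IL-22, and group 2 (ILC2) needs Gata3 and makes IL-5 and IL-13.

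The cells came from C57BL/6 mice aged 8 weeks, labelled fed, and were sorted by flow cytometry as IL7ra+ ILCs after digestion of the gut. Each tissue gave 1 library from a pool of 8 mice, with the 10x Genomics 3′ v2 kit, which counts unique molecular identifiers (UMIs). With 1 library per tissue there was no replicate check and no test was possible. Intervals are 95% intervals of counting error only, so the spread between mice, sorts and libraries is not in them. Tissue, library and handling cannot be told apart.

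The table held 5490 small intestine cells with 15080081 UMIs and 7549 colon cells with 22332691 UMIs. The median cell had 2579 UMIs in small intestine cells and 2600.0 in colon cells, and 60 barcodes occurred in both libraries. Levels are UMIs of a gene per 1000000 UMIs of the pooled cells (CPM). Cells were also divided by marker, a cell being positive with at least 1 UMI of the marker gene. In the small intestine and the colon, 541 and 357 cells held Ccr6 (a chemokine receptor of lymphoid tissue inducer cells), 1605 and 665 held Ncr1 (an activating receptor of NCR+ ILC3s and of ILC1 and NK cells) and 1643 and 4218 held Gata3. Another 172 and 482 held Klrd1 (an NK cell receptor chain), and 429 and 1384 held Cd3e (a T cell receptor complex chain). The sets overlapped, since 724 and 1022 cells were in 2 or more of them, and 1882 and 1615 cells were in none.

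The markers of each set followed its name in part. Il23r, the IL-23 receptor chain of ILC3s, stood at 106 CPM in small intestine Ccr6+ cells and 58.8 CPM in colon Ccr6+ cells. Among Gata3+ cells it stood at 40.8 CPM in small intestine cells against 10.1 CPM in colon cells, and Klrg1, an inhibitory receptor of gut ILC2s, at 293 and 450.3 CPM. The small intestine Gata3+ set thus held this ILC3 transcript, which the colon set held at a lower level. Eomes, the NK cell factor, was at 4.26 and 6.37 CPM in Klrd1+ cells. RNA of the antibody genes and their partners (8 B cell and plasma cell genes) summed to 7252 CPM in small intestine cells and 2478 CPM in colon cells, in a sort for ILCs, and their part in the results was not tested. RNA free in solution, read from barcodes with 10 to 50 UMIs, held the 33 genes at 38998 CPM in small intestine cells and 29593 CPM in colon cells, and made up an estimated 5.35% and 8.25% of the UMIs in cells.

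The 33 genes together took 3.38% of all UMIs in the small intestine cells (33834 CPM, interval 33741 to 33927) and 2.64% in the colon cells (26382 CPM, 26315 to 26449). The ratio of small intestine over colon was 1.28 (1.28 to 1.29), or 0.36 on the log2 scale. Junb, an AP-1 subunit, alone gave 29.6% of these UMIs in small intestine cells and 24.1% in colon cells, and without it the log2 ratio was 0.25. The middle of the whole table lay above 0 as well: the median log2 ratio of all 11962 genes compared (at least 20 UMIs over both sides) was 0.20. With the tissues scaled by the median gene, the log2 ratio of the 33 genes was 0.15. Heat shock genes went the other way, with 13 of them summing to 3840 CPM in small intestine cells and 4878 CPM in colon cells.

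**Figure D1:**
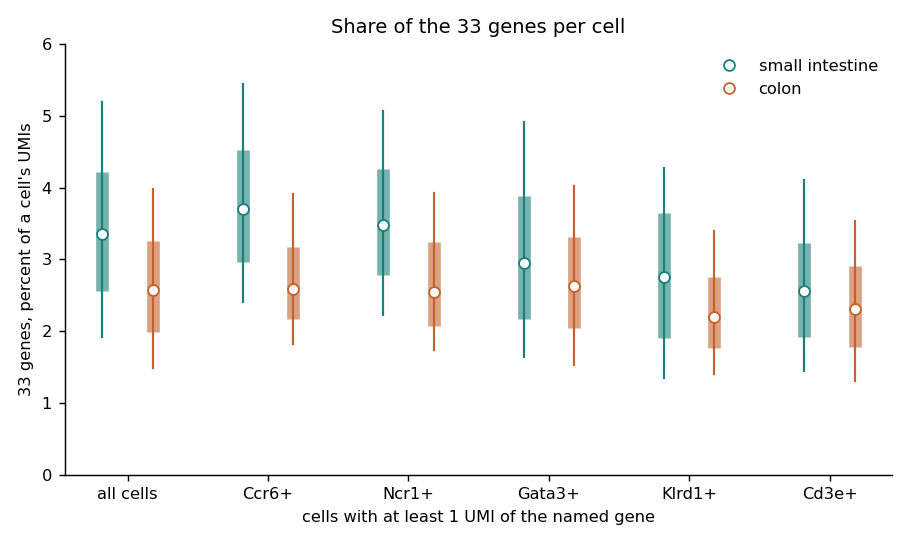
Share of each cell's UMIs taken by the 33 genes (percent, vertical axis) in all cells and in cells with at least 1 UMI of each marker (horizontal axis); circles are medians over cells, thick bars the 25th to 75th percentile and thin lines the 10th to 90th. The median in the small intestine was above that in the colon in each set, by most in Ccr6+ cells (3.71% against 2.59%) and by least in Cd3e+ cells (2.56% against 2.31%), and the ranges overlapped.

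In all small intestine cells the share ran from 1.92% at the 10th percentile to 5.20% at the 90th, and in all colon cells from 1.49% to 3.98%. To see which genes varied together, each gene was measured in the cells with the highest share of the other 32 genes and in as many cells with the lowest (1372 at each end in the small intestine, 1887 in the colon), after each cell was thinned to 1000 UMIs. In the small intestine 16 of 30 genes with enough UMIs were at least 2-fold higher in the top cells, against 4.86% of genes outside the set, and the interval lay above 1 for 26. In the colon 14 of 32 were at least 2-fold higher, against 1.82% of other genes, and the interval lay above 1 for 29. No gene had an interval below 1 in either tissue. The interval counts have no share of other genes beside them and are a description only.

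Egr1, a zinc finger factor, varied most with the rest: it stood at 11.7 CPM in the bottom and 117 CPM in the top small intestine cells, a ratio of 10.1 (6.01 to 18.0), and at 6.36 and 53.0 CPM in the colon, a ratio of 8.33 (4.57 to 16.7). Zfp36, the RNA decay factor tristetraprolin, was 5.70-fold higher (5.0 to 6.51) in the small intestine and 2.91-fold higher (2.58 to 3.27) in the colon. Jun, an AP-1 subunit, was 3.94-fold and 2.87-fold higher, and the orphan nuclear receptor Nr4a1 was 2.81-fold and 3.16-fold higher. Each of these was thus highest in the cells that were rich in the rest of the set, in both tissues. At the other end stood Socs3, the cytokine signal inhibitor, at 1.2 (0.956 to 1.5) and 0.822 (0.659 to 1.02), and Dusp2, a nuclear MAP kinase phosphatase, at 1.29 (0.734 to 2.30) and 0.767 (0.532 to 1.10). Myc, the growth regulator, had ratios of 0.70 (0.327 to 1.46) and 1.12 (0.772 to 1.64), so neither tissue showed a shift beyond counting error. Btg1, an antiproliferative factor that is high in resting lymphocytes, differed little (1.11 and 1.31), although it was the second most abundant of the 33. Top and bottom cells had median depths of 2454 and 2762 UMIs in the small intestine, then 2544 and 2630.0 in the colon. Heat shock genes were at 4004 and 3865 CPM in the top and bottom cells of the small intestine, and at 5989 and 4033 CPM in those of the colon. The part of heat shock in the pattern was not tested.

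**Figure D2:**
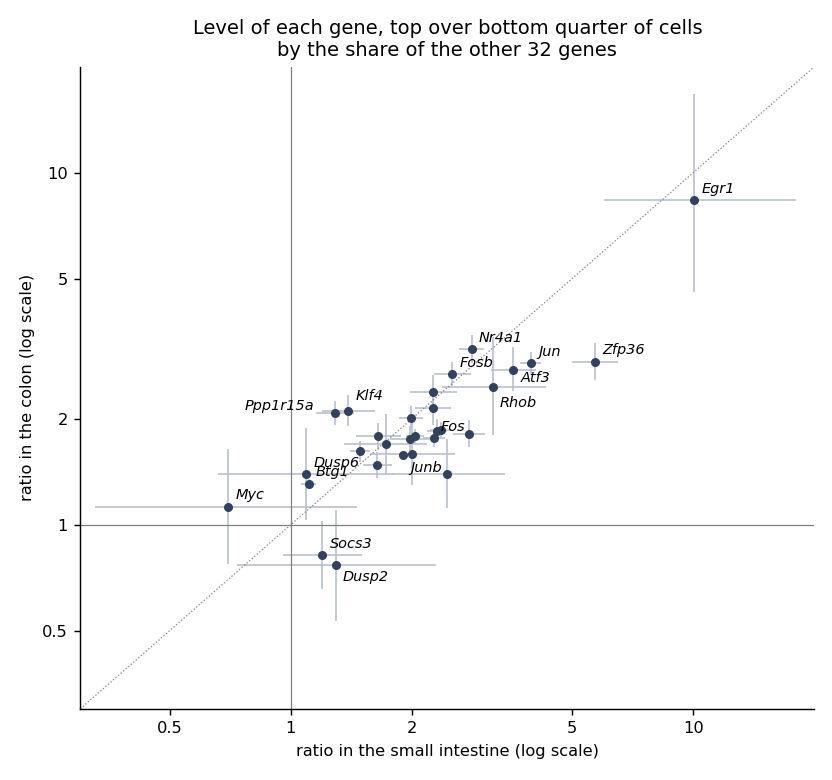
Ratio of each gene's level in the top over the bottom cells, ranked by the share of the other 32 genes, in the small intestine (horizontal, log scale) and the colon (vertical, log scale); points are genes with at least 20 UMIs in both tissues and bars are 95% counting intervals. Egr1 stands apart at 10.1 and 8.33, Zfp36, Jun, Atf3 and Nr4a1 are above 2.7 in both tissues, and Socs3, Dusp2 and Myc lie near 1.

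Promoter sequences are shown for both ends of this ranking, the 3 genes with a single RefSeq promoter window whose lower ratio of the 2 tissues was highest and the 2 whose lower ratio was lowest, a choice made after the ratios were seen. Each is the 250 bases before the RefSeq start (GRCm38.p6), printed 5′ to 3′ on the gene's strand. For Zfp36, Nr4a1 and Socs3 this start lies inside the longer span that GENCODE gives the gene, so distances hold for the RefSeq start only. Capitals mark matches on either strand to the EGR motif GCGNGGGCG or, in Zfp36, to the SRF-bound CArG box as well.
Zfp36, chr7:28379229-28379478, minus strand: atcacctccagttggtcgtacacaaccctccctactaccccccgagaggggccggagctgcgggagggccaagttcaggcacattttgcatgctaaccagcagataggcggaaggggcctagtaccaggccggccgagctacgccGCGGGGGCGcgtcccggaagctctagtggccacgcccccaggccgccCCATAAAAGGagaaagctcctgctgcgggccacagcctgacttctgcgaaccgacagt
Jun, chr4:95052223-95052472, minus strand: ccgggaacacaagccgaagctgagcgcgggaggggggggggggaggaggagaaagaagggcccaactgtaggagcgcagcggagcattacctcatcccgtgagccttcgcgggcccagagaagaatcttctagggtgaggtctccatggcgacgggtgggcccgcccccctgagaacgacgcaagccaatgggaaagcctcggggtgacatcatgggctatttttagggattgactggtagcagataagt
Nr4a1, chr15:101266596-101266845, plus strand: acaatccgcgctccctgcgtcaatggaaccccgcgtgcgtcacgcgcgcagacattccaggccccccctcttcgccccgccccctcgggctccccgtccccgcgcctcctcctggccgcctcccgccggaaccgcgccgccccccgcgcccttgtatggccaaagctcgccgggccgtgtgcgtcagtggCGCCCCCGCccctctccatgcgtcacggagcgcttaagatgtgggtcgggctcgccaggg
Socs3, chr11:117969367-117969616, minus strand: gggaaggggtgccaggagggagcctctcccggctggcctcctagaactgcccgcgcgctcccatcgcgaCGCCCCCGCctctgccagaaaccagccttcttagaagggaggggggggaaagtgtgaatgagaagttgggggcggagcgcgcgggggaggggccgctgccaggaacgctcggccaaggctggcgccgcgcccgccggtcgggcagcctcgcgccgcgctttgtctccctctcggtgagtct
Dusp2, chr2:127335909-127336158, plus strand: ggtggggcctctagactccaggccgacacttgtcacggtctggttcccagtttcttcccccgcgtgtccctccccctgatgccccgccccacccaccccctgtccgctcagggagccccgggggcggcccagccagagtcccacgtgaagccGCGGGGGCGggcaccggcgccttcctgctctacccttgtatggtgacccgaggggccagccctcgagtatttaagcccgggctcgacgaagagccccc
The Zfp36 window held an EGR match starting 105 bases and a CArG box starting 58 bases before the gene's start. Nr4a1 held an EGR match at 60 bases, Dusp2 at 98 bases and Socs3 at 181 bases, and the Jun window held no match to any motif searched. EGR matches were thus present at both ends of the ranking.

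Of the 33 genes, 29 had a RefSeq window, and Egr1, Egr3, Myc and Ier2 had none. Matches to the EGR motif were found in 10 of the 29 (34.5%), against 5.33% of 27025 genes with a window and 10.3% of the 9170 that were also compared between the tissues. The 10 were Btg2, Dusp2, Fosb, Gadd45b, Klf4, Maff, Nr4a1, Nr4a2, Socs3 and Zfp36. The cyclic AMP response element TGACGTCA was in 4 (Btg2, Dusp1, Maff and Ppp1r15a; 13.8% against 1.77% of all and 3.22% of compared genes). A CArG box was in 3 (Dusp5, Egr2 and Zfp36; 10.3% against 1.62% and 1.36%). NF-kB matches were in 5 (Egr2, Fos, Fosb, Ier3 and Maff; 17.2% against 8.23% and 10.8%), and TATAAA was in 6 (20.7% against 14.3% and 7.87%). The AP-1 motif TGANTCA was in 2 (Csrnp1 and Zfp36l1; 6.90% against 7.82% and 5.29%). The windows of the 29 genes had a median GC content of 65.2%, against 52.8% over all genes and 61.2% over compared genes. A match is a description of the sequence and not a site of binding, and genes with several windows had more chances of a match.

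Between the tissues the 33 genes split in direction. Over all cells 17 had an interval above 1 (higher in the small intestine), 14 below 1 and 2 (Csrnp1 and Egr2) including 1. The share of all genes with such intervals was not counted. Their median log2 ratio was 0.04, below the 0.20 of all genes. At least 2-fold higher in small intestine cells were 2 of 33, where 8.92% of all compared genes were, and 2 of 33 were at least 2-fold higher in the colon, where 5.42% were. These counts lay near the background and are no result about the set. Positions below are those of GENCODE vM21 on mm10.

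**Figure D3:**
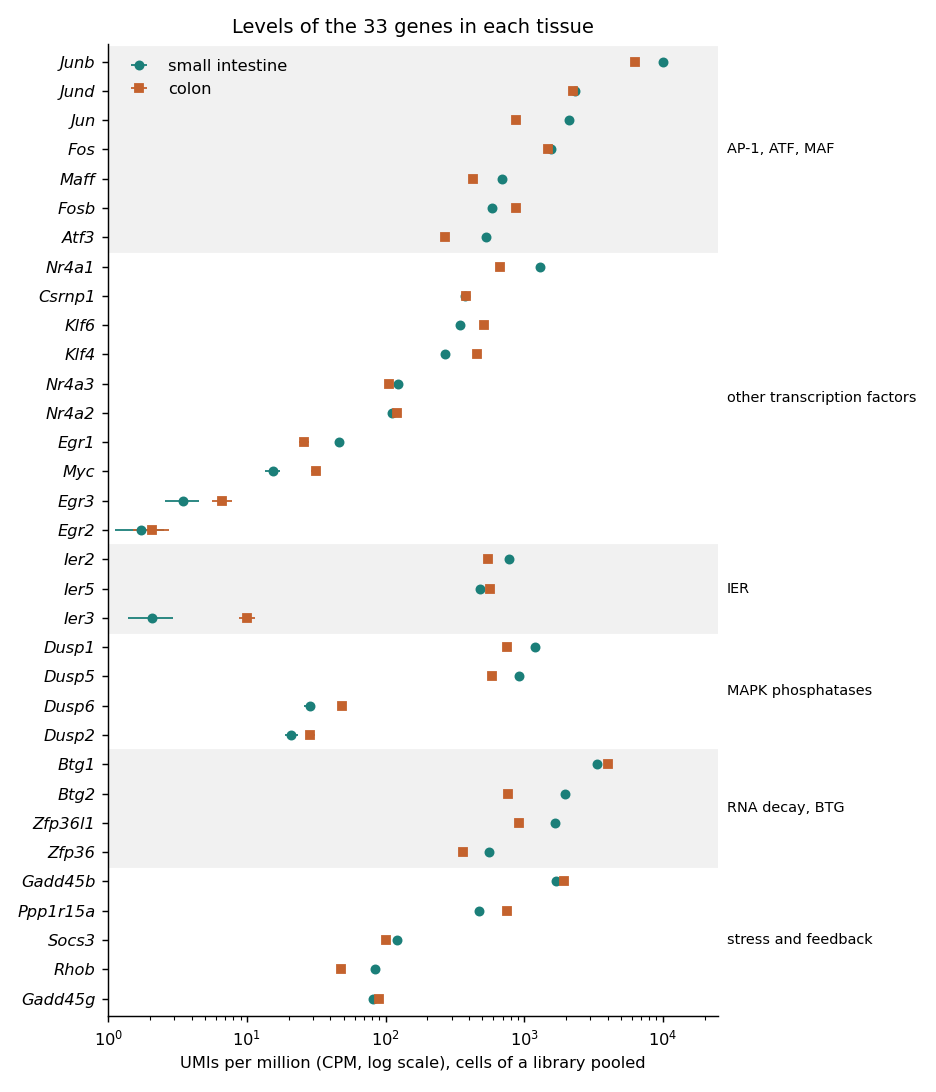
Level of each of the 33 genes in CPM (horizontal, log scale) in small intestine cells (circles) and colon cells (squares), grouped by role and ordered by the small intestine level; bars are 95% counting intervals, mostly smaller than the symbols. Jun and Btg2 lie more than 2-fold to the right in the small intestine, Ier3 and Myc more than 2-fold to the right in the colon, and Junb is highest in both.

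Among AP-1 genes Jun and Junb were higher in the small intestine, Fosb in the colon and Jund nearly level. Junb (chromosome 8, 84974484 to 84978718) stood at 10027 CPM in small intestine cells and 6350.1 CPM in colon cells, a log2 ratio of 0.66. Jun (chromosome 4, 95049034 to 95052222) stood at 2089 and 866 CPM, 2.41-fold higher in small intestine cells (2.37 to 2.46). Atf3, a stress-induced CREB family repressor, was just under 2-fold at 535 and 268 CPM (1.99, 1.93 to 2.06). Maff, a small MAF protein, was at 692 and 428 CPM. Fosb (chromosome 7, 19302696 to 19310051) went the other way, with 581 CPM in small intestine cells and 880.1 CPM in colon cells, a log2 ratio of -0.60. Fos, at 1572 and 1481 CPM, and Jund, at 2312 and 2253 CPM, were nearly level, and both moved to the colon side (log2 -0.12 and -0.17) when the tissues were scaled by the median gene. With that scaling the 3 genes Fos, Fosb and Jund lay on the colon side and the 4 others on the small intestine side.

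The other transcription factors split within the EGR and NR4A families. Nr4a1 (chromosome 15, 101254269 to 101274795), induced by antigen receptor and other signals, stood at 1300.3 CPM in small intestine cells and 671 CPM in colon cells (log2 0.95), while Nr4a2 (112 and 121 CPM) and Nr4a3 (123 and 106 CPM) were close to level. Egr1 was at 46.4 and 25.9 CPM (log2 0.84) and Egr3 at 3.45 and 6.67 CPM (log2 -0.95). The Krüppel-like factors were both higher in the colon, Klf4 at 268 and 457 CPM and Klf6 at 343 and 512 CPM. Myc was at 15.3 CPM in small intestine cells and 31.4 CPM in colon cells, a ratio of 0.487 (0.418 to 0.566). Csrnp1, at 376 and 379 CPM, and Egr2, at 1.72 and 2.06 CPM from 26 and 46 UMIs, did not differ beyond counting error.

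The IER genes, named only for their rapid induction, also split. Ier2 was at 779 and 546 CPM (log2 0.51) and Ier5 at 478 and 567 CPM (log2 -0.24). Ier3, a regulator of survival and ERK signals, was rare, with 31 UMIs in small intestine cells and 224 in colon cells (2.06 and 10.0 CPM), and its ratio of 0.205 (0.136 to 0.299) was the lowest of the 33. Among the phosphatases, Dusp1 (1206 and 750.2 CPM) and Dusp5 (924 and 583 CPM) were higher in the small intestine, both at log2 ratios near 0.7. Dusp6, the cytoplasmic ERK phosphatase, was at 28.3 and 48.7 CPM and Dusp2 at 21.0 and 28.7 CPM, both higher in the colon.

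The RNA decay and BTG genes held the largest tissue ratio. Btg2 (chromosome 1, 134075170 to 134079120), an antiproliferative factor that recruits deadenylases, stood at 1964 CPM in small intestine cells and 767 CPM in colon cells, 2.56-fold higher (2.51 to 2.61). Zfp36l1 was at 1681 and 920.3 CPM (log2 0.87) and Zfp36 at 554 and 359.6 CPM (log2 0.62). Btg1, the paralog of Btg2, was at 3359 and 4055 CPM (log2 -0.27), so the 2 BTG genes lay on opposite sides. Of the stress and feedback genes, the stress sensor Gadd45b was at 1682 and 1922 CPM, and Ppp1r15a, which directs the removal of phosphate from eIF2α, at 469 and 748 CPM (log2 -0.67). Rhob, a short-lived small GTPase, was at 84.6 and 47.5 CPM (log2 0.83), Socs3 at 121 and 101 CPM and Gadd45g, a sensor related to Gadd45b, had 1229 and 2010 UMIs and a log2 ratio of -0.14.

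The tissue ratio was not the same in each marker set. It was largest in Ccr6+ cells when the sets were allowed to overlap, but among cells positive for 1 marker only the log2 ratio was 0.49 in Ccr6+ and 0.52 in Klrd1+ cells. In Ccr6+ cells the 33 genes took 3.85% of UMIs in small intestine cells and 2.71% in colon cells, a ratio of 1.42 (1.40 to 1.44). Of 30 genes compared, 7 were at least 2-fold higher in small intestine cells (background 7.47%) and 2 in the colon (background 3.4%). Jun stood at 3452 and 1122 CPM (log2 1.62), Egr1 at 81.9 and 26.3 CPM (log2 1.64) and Nr4a1 at 1379 and 501 CPM (log2 1.46). The feedback genes Dusp1 (1231 and 559.6 CPM) and Zfp36 (524 and 228 CPM) were also more than 2-fold higher in small intestine cells. Fos, nearly level over all cells, was at 2663 and 1576 CPM here (log2 0.76). Klf4 was at 336 and 601 CPM, Fosb at 729 and 1008 CPM, Ppp1r15a at 419 and 568 CPM, Nr4a3 at 92.6 and 132 CPM, and Myc at 3.59 and 14.1 CPM from 5 and 23 UMIs, all on the colon side. Maff was at 959 and 917 CPM, and its sign, with those of Ier5, Socs3 and Dusp5, changed under scaling by the median gene. Median depth was 2366 UMIs in small intestine cells and 3443 in colon cells in this set, and heat shock genes stood at 3794 and 5119 CPM.

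Ncr1+ cells had 3.56% in small intestine cells and 2.68% in colon cells, a ratio of 1.33 (1.32 to 1.34). Here 6 of 32 genes were at least 2-fold higher in small intestine cells (background 9.26%) and 2 in the colon (background 4.13%). The RNA decay genes were among the 6: Zfp36l1 was at 1893 and 775 CPM (log2 1.29), Zfp36 at 623 and 256 CPM (log2 1.28) and Btg2 at 2466 and 1189 CPM (log2 1.05). Jun (1825 and 701 CPM), Nr4a1 (1381 and 562 CPM) and Dusp1 (1327 and 596 CPM) made up the rest. On the colon side Ier3 stood at 2.11 and 7.17 CPM from 10 and 16 UMIs, and Myc at 17.3 and 35.4 CPM. Socs3, level in Ccr6+ cells, was at 107 CPM in small intestine cells and 213 CPM in colon cells (ratio 0.501, 0.441 to 0.569). Klf4 was at 208 and 358 CPM and Ppp1r15a at 444 and 652 CPM. Il23r was at 68.7 CPM in small intestine cells and 26.0 CPM in colon cells, and Xcl1, a chemokine of NK cells and NCR+ ILC3s, was at 419 and 1553 CPM. The 8 B cell and plasma cell genes summed to 2887 CPM in small intestine and 114 CPM in colon Ncr1+ cells, with all 5 of those compared at least 2-fold higher in the former. The Ncr1+ sets thus differed in makeup, and the part of this in the ratios was not tested.

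In Gata3+ cells the direction of the whole set depended on which cells were taken. All Gata3+ cells gave 3.08% in small intestine cells and 2.68% in colon cells, a log2 ratio of 0.20, with 2 of 33 genes at least 2-fold higher in small intestine cells (background 7.42%) and 4 in the colon (background 4.4%). The 2 were Btg2 (1678 and 682 CPM) and Jun (1812 and 876 CPM), and the 4 were Ier3, Egr2, Egr3 and Myc. With at least 2 Gata3 UMIs per cell the log2 ratio was -0.033. In Gata3+ cells with a Klrg1 UMI and none of Il23r and Ncr1, a set chosen after the data had been seen, 582 small intestine cells had 24300.4 CPM (24084 to 24519) and 2661 colon cells 26905 CPM (26796 to 27015). That is a log2 ratio of -0.15 (ratio 0.903, 0.894 to 0.912), with the colon higher.

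Gene by gene, the same cells showed 7 genes with an interval above 1, 19 below 1 and 7 including 1, with a median log2 ratio of -0.39 against 0.0041 over all 9981 genes compared. These interval counts, too, have no share over all genes beside them. None of the 33 was at least 2-fold higher in small intestine cells (background 3.18%) and 6 were in the colon (background 6.6%). Gadd45b had the lowest ratio among the abundant genes, at 1074 CPM in small intestine cells and 2399 CPM in colon cells (log2 -1.16). Gadd45g was at 25.3 and 73.1 CPM, Dusp6 at 21.7 and 52.2 CPM, Egr3 at 3.54 and 9.42 CPM, and Ier3 and Egr2 had 2 and 1 UMIs in the small intestine. Atf3, higher in the small intestine over all cells, was at 140.5 and 191 CPM here (log2 -0.44), and Zfp36 (348 and 454 CPM) also lay on the colon side. Egr1 was at 20.7 and 27.6 CPM, and its interval (0.526 to 1.05) included 1. Btg2 (1009 and 624 CPM), Zfp36l1 (1338 and 963 CPM), Maff (323 and 256 CPM), Dusp1 (968 and 806 CPM) and Junb (6911 and 5913 CPM) stayed higher in the small intestine, and so did Jun, at 997 and 854 CPM, with a log2 ratio of 0.22 in place of 1.05 in all Gata3+ cells. Heat shock genes were at 5234 CPM in small intestine cells and 5056 CPM in colon cells of this set.

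Klrd1+ cells had 2.85% and 2.34% (ratio 1.22, 1.2 to 1.25), and Cd3e+ cells 2.63% and 2.38% (ratio 1.11, 1.09 to 1.12). T cell markers moved with tissue in the Klrd1+ set: 10 T cell genes summed to 3523 CPM in small intestine and 2130 CPM in colon cells, Cd3e stood at 373 and 114 CPM and Cd8a at 74.5 and 5.73 CPM. Gzma, a granzyme, stood at 1931 CPM against 9.55 CPM. The part of these in the ratios was not tested. In Klrd1+ cells 2 of 30 genes were at least 2-fold higher in small intestine cells (background 7.17%), Btg2 at 2306 and 1018 CPM and Nr4a1 at 1154 and 519 CPM, and 3 in the colon (background 4.88%), Klf4 at 93.7 and 308 CPM, Gadd45g at 29.8 and 97.4 CPM and Fosb at 251 and 505 CPM. In Cd3e+ cells 0 of 32 passed the fold in the small intestine (background 5.12%), where Btg2 came closest at 1727 and 866 CPM. In the colon 3 passed (background 4.27%), Ier3, Klf4 (181 and 384 CPM) and Gadd45g (21.5 and 83.9 CPM). Scaled by the median gene, the Cd3e+ ratio of the whole set was -0.0022 on the log2 scale. Klf4 and Gadd45g were thus at least 2-fold higher in the colon in both sets.

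**Figure D4:**
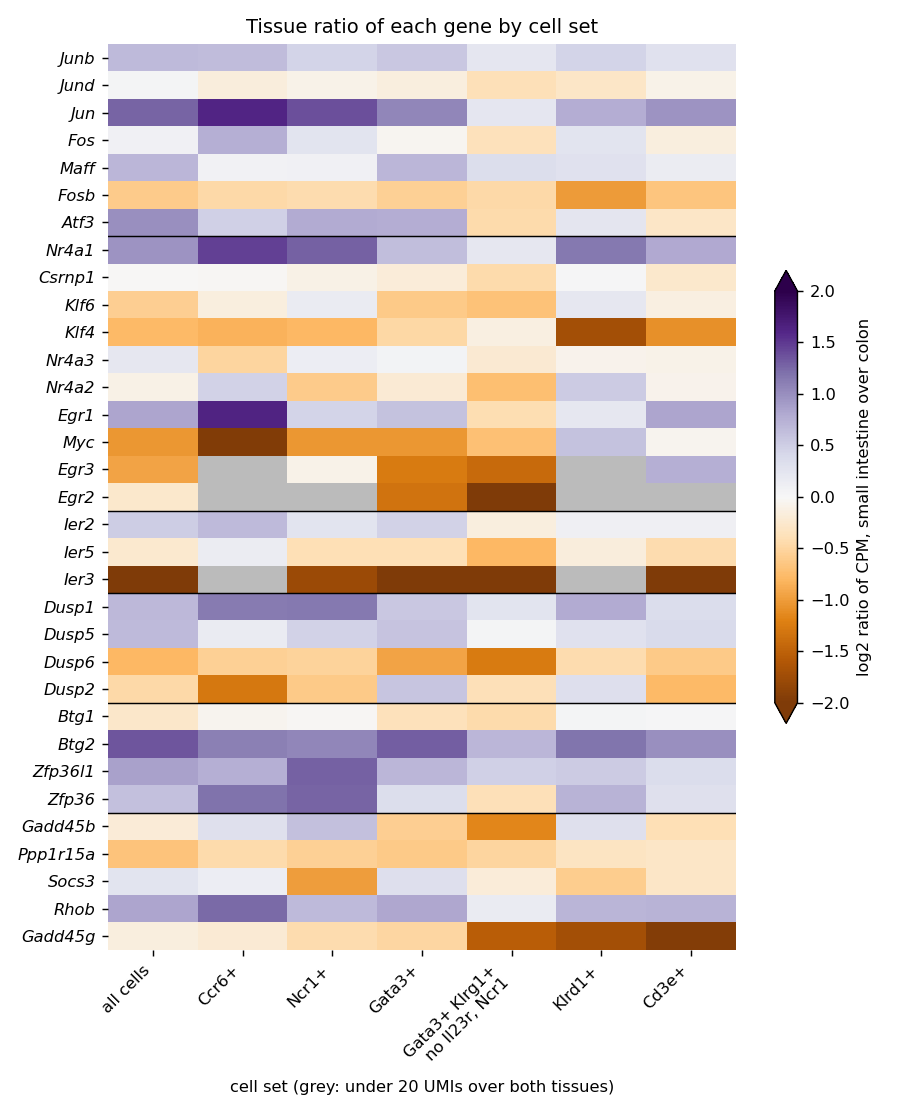
Log2 ratio of CPM, small intestine over colon, for each of the 33 genes (rows, grouped by role) in 7 cell sets (columns); purple is higher in the small intestine, orange higher in the colon, grey is under 20 UMIs over both tissues, and colours saturate at 2. Jun and Btg2 are purple in all columns and Fosb, Klf4 and Ppp1r15a orange in all, while Egr1 and Zfp36 change colour only in the Gata3+ Klrg1+ cells without Il23r and Ncr1.

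To remove the overlap of the sets, cells positive for 1 marker only were compared for Ccr6, Ncr1, Gata3 and Cd3e. The interval lay above 1 in all 4 sets for 8 genes, Jun, Junb, Egr1, Nr4a1, Dusp1, Zfp36l1, Btg2 and Rhob, and below 1 in all 4 for Fosb, Klf4, Gadd45g and Ppp1r15a. For 9 genes it lay above 1 in 1 set and below 1 in another, as for Gadd45b (log2 0.68 in Ccr6-only and -0.83 in Gata3-only cells). The tissues were not scaled by the median gene here. No share over all genes stands beside these counts, so they are no result about the set. The sets of a tissue come from 1 library, so they are not independent of each other.

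Within a tissue, cells positive for Ccr6 alone were set against cells positive for Gata3 alone. These were 377 and 1092 cells in the small intestine, then 178 and 3476 cells in the colon. Socs3 differed most in favour of Ccr6-only cells, at 263 CPM in Ccr6-only and 56.2 CPM in Gata3-only cells of the small intestine (log2 2.23), and 261 and 34.9 CPM in the colon (log2 2.90). Gadd45g was at 118 and 43.7 CPM in the small intestine, then 177 and 72.5 CPM in the colon. Atf3 (639 and 318 CPM, then 497 and 193 CPM) and Maff (1007 and 480.2 CPM, then 1168 and 282 CPM) were also higher in Ccr6-only cells of both tissues. Myc was lower, at 2.20 and 19.7 CPM in the small intestine, then 3.50 and 39.6 CPM in the colon. Its Ccr6-only level rested on 2 UMIs in each tissue. Dusp6 was lower too, at 9.90 and 24.8 CPM and at 17.5 and 51.6 CPM. Dusp2 had 0 UMIs in small intestine Ccr6-only cells (interval up to 4.06 CPM) and 9.87 CPM, from 33 UMIs, in Gata3-only cells. In all, 7 of 30 genes were at least 2-fold higher in Ccr6-only cells of the small intestine (background 10.3%) and 3 in Gata3-only cells (background 6.4%). In the colon 5 of 33 were at least 2-fold higher in Ccr6-only cells (background 14.8%) and 7 in Gata3-only cells (background 9.59%).

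Several genes separated these cells more in 1 tissue than in the other, a difference that was not tested. Zfp36 was at 498 and 475 CPM in Ccr6-only and Gata3-only cells of the small intestine, then at 154 and 453 CPM in the colon. Gadd45b was at 1216 and 1351 CPM in the small intestine, then 757 and 2395 CPM in the colon. Egr1 was at 93.5 and 34.98 CPM in the small intestine, then 19.3 and 26.2 CPM in the colon, where the Ccr6-only level rested on 11 UMIs. Jun (3476 and 1623 CPM, then 1231 and 886 CPM) and Nr4a2 (222 and 79.5 CPM, then 121 and 97.5 CPM) were higher in Ccr6-only cells of both. Klf6 was lower in Ccr6-only cells of both tissues, at 249 and 353 CPM and at 268 and 595 CPM.

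The link with IL-22, the ILC3 cytokine, was weak for the set as a whole. Cells with at least 1 Il22 UMI were set against cells with none, with cytokine UMIs left out of the totals. In Ccr6+ cells the ratio of the 33 genes was 1.01 (0.984 to 1.03) in the small intestine, from 462 and 79 cells, and 0.939 (0.910 to 0.970) in the colon, from 314 and 43 cells. In Ncr1+ cells it was 1.04 (1.03 to 1.05) from 1257 and 348 cells, and 0.970 (0.954 to 0.985) from 316 and 349 cells. Cells with Il22 were also deeper, with medians of 2413 and 2165 UMIs in small intestine Ccr6+ cells. In colon Ccr6+ cells the medians were 3585.5 and 2749 UMIs. Ncr1+ cells had 2848 and 2551.5 UMIs in the small intestine, then 2993.5 and 2455 UMIs in the colon. A single Il22 UMI is weak evidence of expression, since free RNA would give a median cell 0.802 Il22 UMIs in small intestine cells and 0.526 in colon cells, and 31.9% of colon Gata3+ cells with Il5 or Il13 held one. After thinning, small intestine Ncr1+ cells went from 3.47% with 0 Il22 UMIs to 3.81% with 10 or more, and colon Ncr1+ cells from 2.76% to 2.66%. In Ccr6+ cells the values were 3.81% and 3.81% in the small intestine, then 2.84% and 2.70% in the colon.

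**Figure D5:**
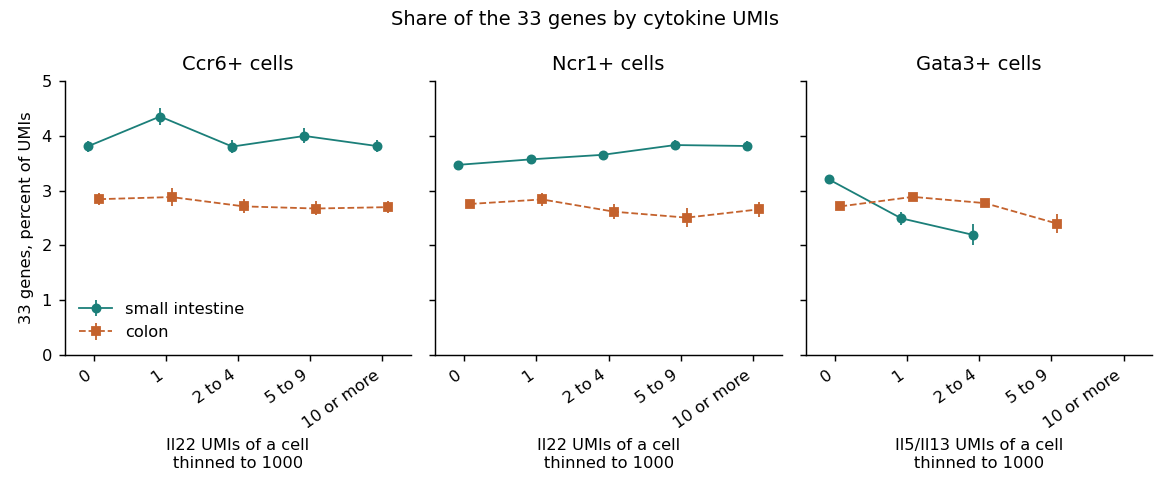
Share of UMIs taken by the 33 genes (percent, vertical axis) against cytokine UMIs per cell after thinning to 1000 UMIs (horizontal axis), for Il22 in Ccr6+ and Ncr1+ cells and Il5 plus Il13 in Gata3+ cells; bars are 95% counting intervals and bands under 20 cells are not drawn. The small intestine is above the colon at every Il22 level, and in Gata3+ cells it falls from 3.20% at 0 to 2.19% at 2 to 4 cytokine UMIs while the colon is at 2.71% and 2.77%.

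Single genes moved with Il22 in opposite directions. Maff was higher in Il22+ cells in all 4 comparisons, at 1004 and 715 CPM in small intestine Ccr6+ cells, 955 and 597 CPM in colon Ccr6+ cells, 738 and 616 CPM in small intestine Ncr1+ cells and 786 and 528 CPM in colon Ncr1+ cells. Atf3 was higher in 3 of them, with ratios of 1.81 (1.41 to 2.36), 1.47 (1.33 to 1.64) and 1.5 (1.29 to 1.74), and had 1.24 (0.936 to 1.67) in colon Ccr6+ cells. Egr1 was lower in Il22+ cells, at 68.3 and 176 CPM in small intestine Ccr6+ cells, 29.5 and 51.8 CPM in small intestine Ncr1+ cells and 11.3 and 41.8 CPM in colon Ncr1+ cells. In colon Ccr6+ cells its ratio of 0.501 rested on 36 and 7 UMIs and its interval (0.220 to 1.33) included 1. Fos (1441 and 3082 CPM), Jun (1047 and 1972 CPM) and Dusp1 (532 and 889 CPM) were lower in Il22+ colon Ccr6+ cells, where heat shock genes stood at 4891 CPM in Il22+ and 7859 CPM in Il22- cells. Without the 10% of cells highest in heat shock genes, the log2 ratio of the 33 genes there went from -0.09 to 0.052. Dusp2 was lower in Il22+ Ncr1+ cells of both tissues, at 31.3 and 62.6 CPM and at 36.2 and 84.5 CPM, and Btg2 was lower in all 4 comparisons, by 0.17 to 0.51 on the log2 scale. Markers of ILC1 and NK cells moved the same way in Ncr1+ cells: 11 of them summed to 1662 CPM in Il22+ and 2299.5 CPM in Il22- cells of the small intestine, and to 1627 and 3238 CPM in the colon. At least 1.5-fold higher in Il22- cells were 6 of 10 and 8 of 9 of those compared, where 6.37% and 9.39% of all genes were. B cell and plasma cell genes summed to 3522 CPM in Il22+ and 341 CPM in Il22- small intestine Ncr1+ cells, and to 109 and 121 CPM in the colon. The same ILC1 and NK markers summed to 333 CPM in Il22+ and 694 CPM in Il22- colon Ccr6+ cells. The part of these shifts in the ratios was not tested.

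Few genes of the set passed 1.5-fold with Il22, except in colon Ccr6+ cells, where most calls were on the Il22- side. In small intestine Ccr6+ cells 3 of 28 genes were higher in Il22+ cells (background 17%) and 2 in Il22- cells (background 13.1%). In colon Ccr6+ cells 2 of 30 were higher in Il22+ cells (background 18.2%) and 9 in Il22- cells (background 18.6%). There 6 of the 30 had an interval below 1, so some of the 9 calls lay within counting error. The Il22- side held 43 cells. In Ncr1+ cells of the small intestine 1 of 31 was higher (background 9.29%) and 4 were lower (background 6.37%), and in the colon 1 of 30 was higher (background 10.9%) and 4 were lower (background 9.39%).

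With the ILC2 cytokines the 33 genes were lower in positive cells of the small intestine and level in the colon. Small intestine Gata3+ cells with Il5 or Il13 had 24107 CPM, from 231 cells, against 32229 CPM in 1412 negative cells, a ratio of 0.748 (0.737 to 0.759). In the colon the values were 26854 and 26822 CPM, from 1310 and 2908 cells, a log2 ratio of 0.0017 (ratio 0.994 to 1.01). The negative cells of the small intestine held Il23r at 47.6 CPM and Ncr1 at 165 CPM, against 6.05 and 13.3 CPM in the positive cells, while in the colon Il23r was at 12.9 and 4.42 CPM. In Klrg1+ Gata3+ cells without Il23r and Ncr1 the ratio was 0.920 (0.902 to 0.938) in the small intestine, from 169 and 413 cells, and 0.986 (0.978 to 0.995) in the colon.

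Of 30 genes compared in small intestine Gata3+ cells, 12 were at least 1.5-fold lower in cytokine-positive cells, where 27.3% of all genes were, and 2 were higher (background 6.07%). Socs3 was at 29.1 CPM in positive and 81.8 CPM in negative cells, Atf3 at 176 and 415 CPM, Jun at 965 and 1983 CPM, Ier2 at 397 and 766 CPM and Btg2 at 966 and 1822 CPM. The 2 higher genes were Myc (33.9 and 14.4 CPM) and Klf4 (464 and 301 CPM). In the colon 2 of 33 genes were lower (background 9.56%), Socs3 at 34.1 and 71.3 CPM and Dusp2 at 8.86 and 18.0 CPM, and 2 were higher (background 2.86%), Egr3 at 13.1 and 6.90 CPM and Ier3 at 14.0 and 8.24 CPM. Nr4a1 (906 and 713 CPM), Nr4a3 (123 and 90.7 CPM) and Myc (45.9 and 31.3 CPM) were also higher in cytokine-positive colon cells, under the 1.5-fold mark. In the Klrg1+ Gata3+ cells without Il23r and Ncr1 most of these calls were gone. In the small intestine 1 of 29 genes was at least 1.5-fold lower in cytokine-positive cells (background 12.2%), Egr1 from 9 and 32 UMIs with an interval that included 1, and 1 was higher (background 6.43%), Myc. In the colon 0 of 33 were lower (background 8.3%) and 1 was higher (background 3.19%), Ier3 at 17.0 and 8.69 CPM. Myc stayed higher in cytokine-positive cells of both tissues, with ratios of 1.90 (1.03 to 3.49) and 1.39 (1.12 to 1.74). Socs3, which was high in Ccr6-only cells, had ratios of 1.19 (0.622 to 2.22) and 0.754 (0.568 to 0.995) in this set.

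Genes that act around the set were mostly level between the tissues. Of 17 upstream genes (SRF, ETS, CREB and MAP kinase genes) 0 were at least 2-fold apart over all cells, with a median log2 ratio of 0.24 against 0.20 for all genes. Of 12 AP-1 partners 1 passed, Bach2, a repressor that competes with AP-1, at 4.11 CPM in small intestine cells and 10.97 CPM in colon cells. Of 25 other early response genes 4 were at least 2-fold higher in small intestine cells and 2 in colon cells. The receptor kinase inhibitor Spry2 stood at 417 and 163 CPM, the phosphatase Dusp4 at 72.7 and 29.1 CPM and the kinase Plk3 at 102 and 46.8 CPM. Spry1, the paralog of Spry2, went the other way at 6.23 and 27.5 CPM, as did the kinase Sgk1 at 9.62 and 21.0 CPM. Of 15 early NF-kB targets only the cytokine Tnf passed, at 90.9 and 32.6 CPM. Heat shock genes had a median log2 ratio of -0.35, with 1 of 13 past 2-fold, Hspb1, from 4 and 41 UMIs.

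Between Ccr6-only and Gata3-only cells, the AP-1 partner Batf3 was higher in Ccr6-only cells of both tissues, at 172 and 39.5 CPM in the small intestine, then 194 and 15.1 CPM in the colon. Odc1, the first enzyme of polyamine synthesis, was at 3211 and 919 CPM and at 4014 and 822 CPM (log2 1.80 and 2.29). The MAP kinase phosphatase Dusp10 was lower in Ccr6-only cells, at 51.7 and 214 CPM and at 50.8 and 167 CPM. In the colon the heat shock genes Hspa1a (841 and 181 CPM) and Dnajb1 (476 and 167 CPM) were higher in Ccr6-only cells. In the small intestine 0 of 12 heat shock genes were at least 2-fold higher in Ccr6-only cells (background 10.3%), a count near the background.

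Across cells, the genes outside the set whose level followed it most closely were NF-kB feedback genes. Pearson's r between log-scaled counts of the gene and of the set, over 5490 and 7549 cells, was 0.49 and 0.47 for Nfkbia, the inhibitor IκBα, 0.34 and 0.43 for Tnfaip3, the ubiquitin-editing enzyme A20, and 0.34 and 0.32 for the kinase Pim1, in the small intestine and the colon. Of the 3780 genes considered, 6 of the next ones, Pnrc1, Nfkbid, Ifrd1, Nfkbiz, Ccnl1 and Ddx5, had a lower r of the 2 tissues of 0.21 to 0.27, which in sparse counts is weak. The points are cells of 1 library each and share its depth and its free RNA. Nfkbia itself was level between the tissues, at 2771 and 2886 CPM, as was Tnfaip3, at 1406 and 1311 CPM.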

How the data were processed

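Per the labels, cells were sorted from digested small intestine and colon, and libraries were made with the 10x 3′ v2 kit; per the submitters' processing notes, Cell Ranger 3.0.2 and mm10 were used, and other settings are not given in the sources used here. The authors deposited raw UMI counts for all barcodes and a table of counts of 13039 chosen cells and 17238 genes, which was used as deposited; the rule that chose the cells is not given. UMIs were summed over cells and divided by their total (CPM), with exact Poisson intervals for levels and exact conditional binomial intervals for ratios (95%, counting error only). Genes with at least 20 UMIs over both sides were compared; a call was a ratio of at least 2, or 1.5 in cytokine comparisons, and nothing was tested. With 0 UMIs on 1 side, that side was set to 3 counts.

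Cells were thinned to 1000 UMIs to rank cells and for cytokine bands, leaving out 0 cells. Scrublet (scanpy 1.11.5) marked 0 and 1 cells by its automatic threshold, under 0.5% of each library, so doublets stayed in the main values and the 241 and 456 top-scoring cells were left out as an alternative. Barcodes with 10 to 50 UMIs gave the profile of free RNA. Python 3.11.15, numpy 2.4.6, scipy 1.17.1, pandas 2.3.3 and matplotlib 3.10.9 were used, and ratios were tested on simulated data.

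Values of their own went to the 10 genes with most UMIs and those at least 2-fold apart between tissues, and within a marker or cytokine comparison to the 5 furthest apart in each direction by the interval bound nearest 1. Of other lists, up to 3 genes per direction were named, and of genes like the set, the 10 with the highest lower r of the 2 tissues among genes with at least 500 UMIs in each library, of which 1 is not reported here. Values of further members were added after they had been seen. The 33 members and all lists were chosen with earlier results of these data known. Positions are from GENCODE vM21 and promoter windows from RefSeq (GRCm38.p6). Alternatives were the scaling, the cells, the marker minimum, free RNA, doublets, heat shock, the leading gene, the fold and the UMI minimum.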

Additional observations from a re-analysis of the deposited data

Results flagged for a closer look

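For 5 values the small intestine and the colon moved in opposite directions under the same contrast, with intervals that exclude a ratio of 1 in both; the difference between the tissues was not tested, since there was 1 library of each. The log2 ratio of the 33 genes in Il22+ over Il22- cells among Ncr1+ cells was 0.059 in small intestine and -0.044 in colon cells, and 0.13 and -0.030 over all cells. For cells with Il5 or Il13 over cells without, it was -0.50 in small intestine and 0.032 in colon cells over all cells. The all-cell contrasts were not limited to 1 marker set. In the small intestine the 33 genes stood at 38450 CPM in Ccr6+, 35596 CPM in Ncr1+ and 30824 CPM in Gata3+ cells. In the colon they stood at 27062, 26779 and 26797 CPM. The part of cell mix in these contrasts was not tested. Among Gata3+ cells, Dusp5 had -0.63 in small intestine and 0.11 in colon cells with Il5 or Il13, and Gadd45g had -0.96 and 0.26. Among these Gata3+ cells the small intestine cells without the cytokines held Il23r at 47.6 CPM against 6.05 CPM in those with them. In the Klrg1+ Gata3+ cells without Il23r and Ncr1, the 33 genes lay below 1 in both tissues. Their ratios were 0.920 (0.902 to 0.938) in small intestine and 0.986 (0.978 to 0.995) in colon cells. There Dusp5 had ratios of 1.07 (0.932 to 1.23) in small intestine and 1.23 (1.16 to 1.31) in colon cells. Gadd45g had 0.874 (0.436 to 1.66) and 1.37 (1.16 to 1.60). Neither gene thus had intervals on opposite sides of 1 in that set.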

How the results depend on the processing

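Values are log2 ratios of the 33 genes together unless stated. Of 81 alternatives, 37 stayed within the counting interval of the value reported, 37 moved outside it with the same direction and 7 changed direction; of the 37 within the interval, 1 also changed sign (Il22 in small intestine Ccr6+ cells as the mean over cells, -0.011); intervals are narrow at this depth and hold no spread between mice. The cause of each change was not tested. In Gata3+ cells with Klrg1 and without Il23r and Ncr1 (chosen after the data were seen) the tissue ratio was -0.15, the Il5/Il13 ratio -0.12 (small intestine) and -0.020 (colon), and 0 genes had a 2-fold higher level in small intestine cells; genes 1.5-fold lower beside Il5 or Il13 numbered 1 in place of 12 (small intestine) and 0 in place of 2 (colon), and higher ones 1 in place of 2 in each. With cells in no other marker set, tissue ratios were 0.49 (Ccr6+), 0.30 (Ncr1+), 0.086 (Gata3+), 0.52 (Klrd1+, 31 and 120 cells) and 0.19 (Cd3e+). With the same limit the Il22 ratio in colon Ccr6+ cells was -0.16, and the Il5/Il13 ratios were -0.34 (small intestine) and -0.014 (colon). Scaled by the median gene, tissue ratios were 0.15 (all), 0.32 (Ccr6+), 0.20 (Ncr1+), 0.041 (Gata3+), 0.13 (Klrd1+) and -0.0022 (Cd3e+). Without Junb they were 0.25, 0.44, 0.40, 0.079, 0.23 and 0.092 in that order, Il22 ratios in Ccr6+ cells were -0.039 (small intestine) and -0.15 (colon), and Il5/Il13 ratios -0.39 and 0.042. Without the 10% of cells highest in heat shock genes, tissue ratios were 0.39, 0.54, 0.46, 0.23, 0.35 and 0.12, the colon Ccr6+ Il22 ratio 0.052, the colon Il5/Il13 ratio 0.019, and 4 genes in place of 2 had a 2-fold higher level in small intestine cells. At least 2 marker UMIs gave 0.39 (Ncr1+), -0.033 (Gata3+) and 0.21 (Klrd1+). The mean over cells gave 0.38 (all), 0.21 (Gata3+) and, for Il5/Il13 in the colon, 0.023. Leaving out doublets gave 0.53 (Ccr6+) and 0.19 (Gata3+). Thinning gave 0.053 for Il22 in small intestine Ccr6+ cells and 0.058 for Il5/Il13 in the colon. At a fold of 1.5, 12 genes were higher in small intestine cells and 7 in colon cells. The share of all genes was not counted at that fold, nor without the cells highest in heat shock genes. The counts under these alternatives are thus no result about the set. Free RNA subtraction and cells rebuilt from all barcodes (5865 and 7852) kept each tissue ratio within its interval.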
